A study of Mus musculus with 2 samples.

Results

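The levels of 50 genes that act in G2 and mitosis were followed through the cell types of the E12.5 mouse fetal liver. The members were taken from a list of symbols, and all 50 were found among the 27998 genes of the count tables. They were grouped by role into 8 regulators of Cdk1 and mitotic entry, 4 genes of ubiquitin ligation at mitotic exit, 5 genes of the chromosomal passenger complex and spindle checkpoint, 6 of the centromere and kinetochore, 12 of the spindle, 4 of cytokinesis, 8 of chromosome structure and 3 of the nuclear envelope and pore. Cells came from 1 wild-type (WT) C57BL/6 liver (C57BL/6J in the methods of the study) at E12.5, were untreated, were cleared of debris, dead cells and doublets by FACS, and were run as 2 technical replicates (libraries 1 and 2) of 10x single-cell RNA-seq. Cell types and the 6 erythroid subclusters (Ery 1 to Ery 6) were those of the deposited cell table: hematopoietic stem and progenitor cells (HPSC), erythroid-committed progenitors (Ery, made up of Ery 1 and Ery 2), definitive erythroblasts (Eryb, Ery 3 to Ery 6), primitive erythroblasts (EryP), granulocytes (G), monocytes and Kupffer cells (Mo/KC), megakaryocytes (Mk), hepatoblasts (Hepa) and endothelial cells (EC).

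Progression from G2 into mitosis is driven by Cdk1 bound to B-type cyclins. Exit from mitosis requires that the anaphase-promoting complex, a ubiquitin ligase activated by Cdc20, marks cyclins and other mitotic proteins for degradation. Most genes of this programme are transcribed late in the cycle, and their promoters are known for CCAAT boxes, which NF-Y binds, and for the cell cycle homology region, which the DREAM, B-Myb and FoxM1 complexes use. In the fetal liver, erythroid cells divide while they mature and load globin, and leave the cycle before they expel the nucleus.

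Because the members are known for shared promoter elements, RefSeq promoter windows (GRCm38.p6, 250 bases before to 50 bases from the start of the transcript) were searched on both strands. The CCAAT box was read as CCAAT on the plus strand, which is written ATTGG when it lies on the minus strand. The cell cycle homology region was read as TTTGAA, which is written TTCAAA when it lies on the minus strand, with the palindromic form TTCGAA as well. Matches may share bases. A window was found for 44 of the 50 members, 49 windows in all. The CCAAT box letters stood in 37 of the 49 windows (75.5%), against 37.4% of all 32851 windows of the table. The cell cycle homology letters stood in 36 (73.5%), against 19.2% of all windows, and both were found in 30 (61.2%), against 7.52%. Both motifs were absent from 6 member windows (12.2%), against 50.9% of all windows. Such matches describe letters only. The 120 bases upstream of the annotated start (the outermost of the RefSeq and GENCODE starts) are shown for 6 members whose patterns are set apart below. Outside globin genes, Cdk1 and Top2a peaked in Ery 5 like the sum of the list but fell further in Ery 6. Ube2c and Nusap1 rose most, Cdc20 rose little, and Psrc1 peaked elsewhere. Capitals mark the motif letters.
Cdk1, chr10:69352939-69353058, minus strand: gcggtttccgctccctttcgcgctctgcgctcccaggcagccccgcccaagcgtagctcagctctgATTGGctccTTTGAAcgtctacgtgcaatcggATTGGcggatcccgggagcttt
Top2a, chr11:99024190-99024309, minus strand: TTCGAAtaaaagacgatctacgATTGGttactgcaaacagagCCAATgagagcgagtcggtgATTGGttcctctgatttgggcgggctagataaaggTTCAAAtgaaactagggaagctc
Ube2c, chr2:164769778-164769897, plus strand: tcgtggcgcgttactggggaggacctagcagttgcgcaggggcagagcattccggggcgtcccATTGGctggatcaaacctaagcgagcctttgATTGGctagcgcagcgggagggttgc
Nusap1, chr2:119618178-119618297, plus strand: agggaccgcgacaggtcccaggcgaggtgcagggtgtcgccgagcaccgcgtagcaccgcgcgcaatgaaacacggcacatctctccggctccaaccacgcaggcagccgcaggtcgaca
Cdc20, chr4:118437353-118437472, minus strand: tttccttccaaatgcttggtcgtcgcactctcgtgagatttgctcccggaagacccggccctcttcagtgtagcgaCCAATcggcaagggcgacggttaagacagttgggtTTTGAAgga
Psrc1, chr3:108383684-108383803, plus strand: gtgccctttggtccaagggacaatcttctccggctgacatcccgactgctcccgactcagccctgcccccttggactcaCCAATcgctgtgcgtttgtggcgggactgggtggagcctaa
These stretches lie upstream of the annotated first exons. Cdk1, Top2a and Cdc20 held both kinds of letters, Ube2c and Psrc1 held the CCAAT box letters only, and the Nusap1 stretch held neither. The full windows of Ube2c and Psrc1 did hold cell cycle homology letters outside the stretches shown: 29 bases before the RefSeq start for Ube2c, within the 31 bases left out of its stretch, and 30 bases before the start in 1 of the windows of Psrc1.

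The cell table kept 5480 cells of library 1 and 5057 of library 2, with 51969226 and 62738015 UMIs and a median of 6261 and 9774 UMIs per cell. The lowest cell had 504 UMIs in library 1 and 4387 in library 2. Globin genes took 19.6% of UMIs in library 1 and 36.6% in library 2, so each level is given per UMI (share or CPM of all UMIs) and, where the scale matters, per UMI outside globin genes (non-globin CPM). A total of 31 barcodes was kept in both libraries, of 10537 cells. Of 9 marker genes, 7 were highest in their own type in both libraries. Myb was higher in G than in HPSC, and Klf1 was higher in Eryb than in Ery in library 1. The study names Klf1 for both Ery and Eryb, so it need not be highest in Ery. Both libraries sample 1 liver, so no test across animals could be made: values are given for each library, 95% intervals (exact Poisson or Clopper-Pearson) cover counting error only, and 2-fold calls need the same direction in both libraries and a mean of at least 10 CPM over both groups. The members gave 557961 and 495521 UMIs, 1.07% and 0.790% of the total. In barcodes with 1 to 50 UMIs, which hold free RNA, they gave 0.967% and 0.831% of all UMIs, and 1.22% and 1.37% outside globin genes.

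As a share of UMIs, the summed members were highest in Ery 5, the subcluster of late erythroblasts that precedes Ery 6 in globin content, both over all UMIs and outside globin genes. They were lowest in EryP over all UMIs, but outside globin genes EryP ranked 11 of 13 groups in library 1 and 6 of 13 in library 2. In Ery 5 they took 2.24% of all UMIs in library 1 and 1.11% in library 2. In Ery 1, at the start of the erythroid path, they took 0.857% and 0.805%, and in Ery 6 only 0.529% and 0.250%. The rise therefore ran up to Ery 5 in both libraries, except that Ery 4 (0.958%) was slightly below Ery 3 (0.982%) in library 2. Outside globin genes the order from Ery 1 to Ery 5 was unbroken in both libraries: 0.866% and 0.824% in Ery 1, 1.10% and 1.002% in Ery 2, 1.55% and 1.37% in Ery 3, 2.46% and 2.24% in Ery 4, and 4.58% (95% interval 4.54 to 4.61) and 4.17% (4.14 to 4.20) in Ery 5. In Ery 6 the share outside globin genes was 1.26% and 1.16%, near the free RNA level of 1.22% and 1.37% on this scale. These 2 libraries differed by less in the non-globin share than neighbouring subclusters did, from Ery 1 to Ery 5.

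**Figure D1:**
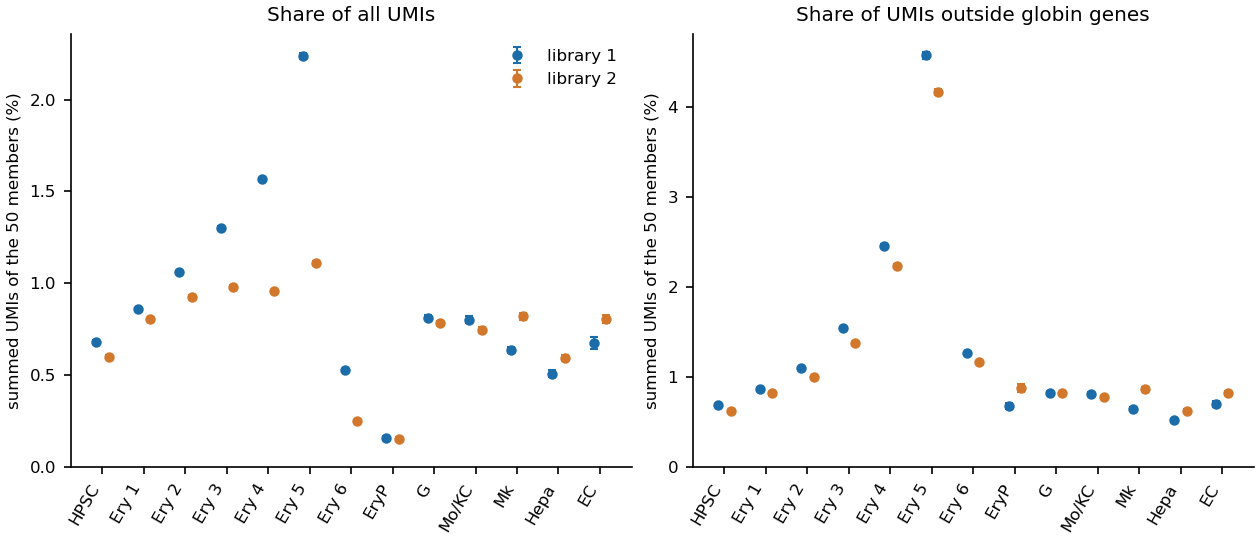
Summed UMIs of the 50 members in each cell group, as a share of all UMIs (left, %) and of UMIs outside globin genes (right, %); points are the 2 libraries and bars their 95% counting intervals, mostly smaller than the points. Ery 5 stands highest in both libraries on both scales (4.58% and 4.17% outside globin genes), and for Ery 4 to Ery 6 the libraries lie far apart on the left and close together on the right.

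The fold from Ery 1 to Ery 5 was 5.28 in library 1 and 5.06 in library 2 outside globin genes, and from Ery 5 to Ery 6 the level was 3.63-fold and 3.59-fold lower. On all UMIs the log2 ratio of Ery 5 to Ery 1 was 1.38 and 0.47. Counted per cell the direction from Ery 1 to Ery 5 was the opposite, because Ery 5 cells held fewer UMIs than Ery 1 cells. There were 226 and 208 member UMIs per Ery 1 cell and 91.7 and 91.9 per Ery 4 cell. Ery 5 cells held 131 and 110, more than Ery 4 cells in both libraries, and Ery 6 cells 24.7 and 21.1. Whether members are higher in Ery 6 than in Ery 1 thus depended on the scale, with log2 ratios of -0.70 and -1.69 on all UMIs, 0.54 and 0.50 outside globin genes, and -3.19 and -3.30 per cell. The fall from Ery 5 to Ery 6 had 1 direction on all 3 scales: the log2 ratio was -2.08 and -2.15 on all UMIs, -1.86 and -1.84 outside globin genes, and -2.41 and -2.39 per cell. Its size rested on the cells kept. With at least 1000 genes and under 10% mitochondrial UMIs per cell, a filter that left 14.5% and 11.4% of Ery 6 cells, the share outside globin genes was 4.63% and 4.26% in Ery 5 and 2.48% and 2.35% in Ery 6.

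Gene by gene, 47 of the 50 members were at least 2-fold higher in Ery 5 than in Ery 1 outside globin genes and 0 were 2-fold lower, against 21.1% of all 6026 genes tested that were higher and 37.4% that were lower. The exceptions were Cks1b, Cdc20 and Psrc1. The median log2 ratio of the members was 2.46 in library 1 and 2.28 in library 2, and that of all genes tested -0.57 and -0.50. On all UMIs 17 of the 49 members tested were 2-fold higher, against 6.58% of all genes. From Ery 5 to Ery 6, 47 of 49 members tested were 2-fold lower outside globin genes (all genes 16.3%) and 46 of 46 on all UMIs (all genes 22.2%). The pair that did not fall 2-fold outside globin genes was Ccnb2 and G2e3, and Psrc1 was too low to be tested. Subclusters were made by the authors from variable genes of the same cells, so these counts describe the clusters and do not test them.

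The rise was spread over several steps, outside globin genes. From Ery 1 to Ery 2, 0 of 49 members rose 2-fold (all genes 2.02%). From Ery 2 to Ery 3, 7 of 50 did (all genes 4.10%): Cenpe, Cenpf, Nusap1, Anln, Top2a, Mki67 and Lbr. From Ery 3 to Ery 4, 8 of 50 did (all genes 5.27%), of which Ube2c and Kif11 were not among the former 7. From Ery 4 to Ery 5, 13 of 50 did (all genes 2.47%), among them Cdc25c, Cks1b, Cenpa, Ndc80, Kif23, Ect2 and Cdca2. Cenpe, Cenpf, Nusap1 and Anln passed the rule in each of these last 3 steps.

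**Figure D2:**
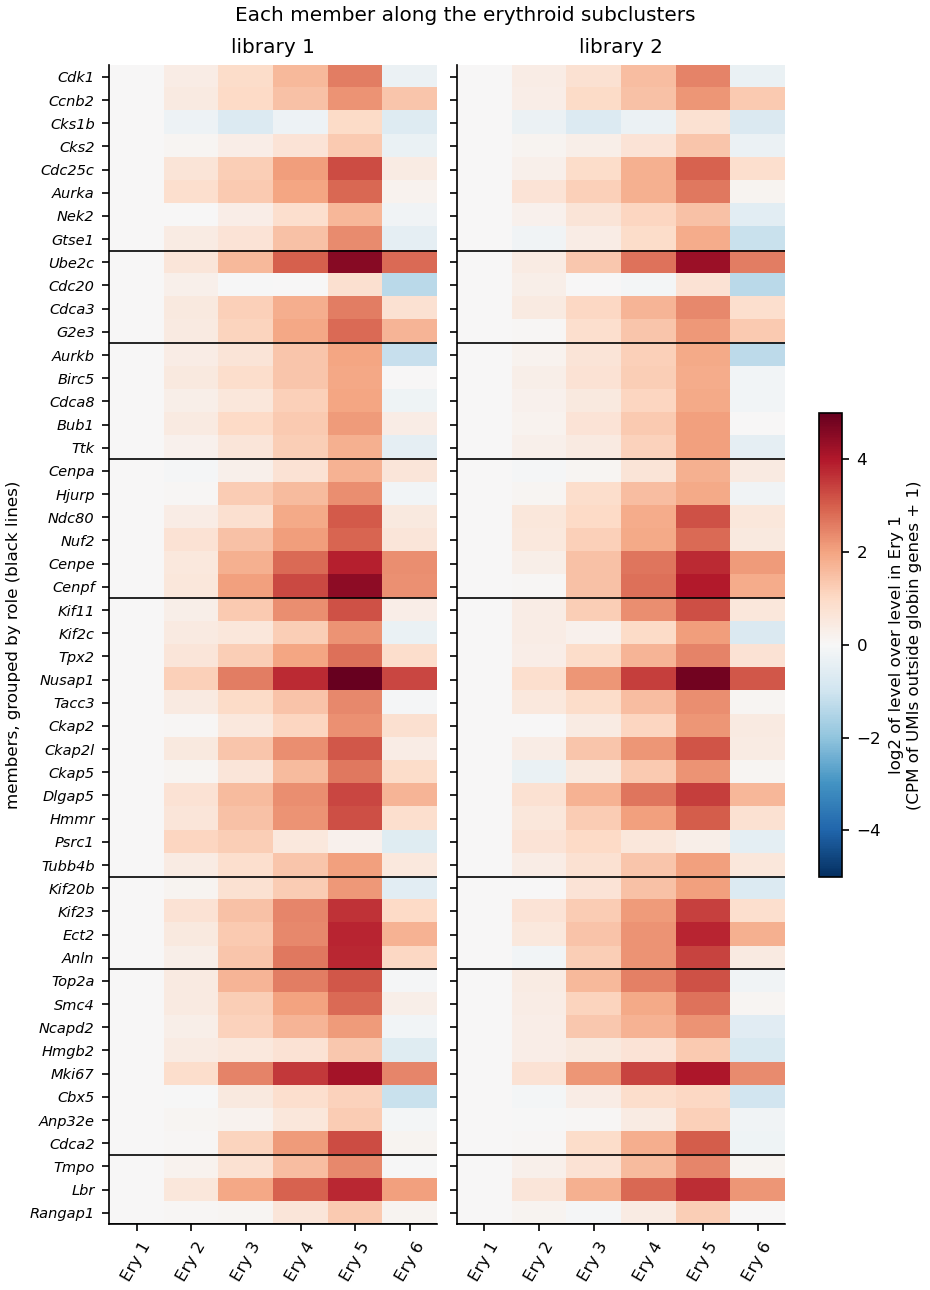
Level of each member in Ery 1 to Ery 6 as log2 over its level in Ery 1 (CPM of UMIs outside globin genes, 1 CPM added), libraries side by side, with members grouped by role between black lines. Nearly every row is reddest in Ery 5, where 49 of 50 members peak in both libraries. The share of all genes that peak there was not counted. Psrc1 peaks in Ery 3 and Cks1b dips before it rises.

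Among the regulators of mitotic entry, Cdk1, the kinase that drives mitosis, stood at 182 and 178 non-globin CPM in Ery 1 (libraries 1 and 2), 1082 and 993 in Ery 5 and 149 and 141 in Ery 6. Ccnb2, a B-type cyclin that activates Cdk1, rose from 194 and 180 to 922 and 832 and was still at 502 and 451 in Ery 6. Ccnb2 thus kept over 50% of its Ery 5 level where Cdk1 was below its Ery 1 level. Aurka, the kinase that matures centrosomes, went from 85.0 and 91.5 to 636 and 570, and Cdc25c, the phosphatase that activates Cdk1, from 14.4 and 16.5 to 146 and 135. Nek2, a centrosome kinase, reached 92.5 and 63.4, and Gtse1, a microtubule-binding protein of G2, 63.7 and 55.0. Cdk1, Aurka, Cdc25c, Nek2 and Gtse1 all fell again in Ery 6, where Aurka was at 97.2 and 100.4. The small Cdk-binding proteins Cks2 and Cks1b were abundant throughout. Cks2 rose from 836 and 784 in Ery 1 to 2083 and 2057 in Ery 5. Cks1b, which also serves the Skp2 ubiquitin ligase at entry into S phase, was at 512 and 490 in Ery 1, lowest before Ery 6 in Ery 3 at 323 and 305, and at 999 and 842 in Ery 5. Its course from Ery 1 to Ery 3 ran against that of the other 49 members summed.

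Of the genes of mitotic exit, Ube2c, the ubiquitin-conjugating enzyme of the anaphase-promoting complex, was the most abundant member in late erythroblasts. Ube2c was at 371 (95% interval 359 to 383) and 383 (370.4 to 396) non-globin CPM in Ery 1, 8748 (8596 to 8903) and 7489 (7354 to 7626) in Ery 5, and 2648 and 2268 in Ery 6. It made up 4.28% and 4.65% of all member UMIs in Ery 1 but 19.1% and 18.0% in Ery 5 and 21.0% and 19.5% in Ery 6. Its partner Cdc20, the activator of the same complex, moved little, from 264 and 258 in Ery 1 and 315 and 313 in Ery 2 to 455 and 428 in Ery 5, and was at 102 in Ery 6 in both libraries. The pair therefore changed unequally within 1 enzyme system. Cdca3, a trigger of mitotic entry that targets Wee1 for degradation, rose from 193 and 195 to 1126 and 1029. G2e3, a ubiquitin ligase named for its G2 and M expression, was low, at 8.50 and 9.38 in Ery 1, 67.3 and 45.4 in Ery 5 and 29.7 and 24.4 in Ery 6.

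The passenger complex corrects faulty attachments of chromosomes to the spindle. Its kinase Aurkb went from 80.0 and 72.0 non-globin CPM in Ery 1 to 320.3 and 271 in Ery 5 and 35.2 and 28.6 in Ery 6. Its partners in the complex were more abundant. Birc5 (survivin) was at 402 and 406, then 1554 and 1456, then 411 and 367. Cdca8 (borealin) was at 213 and 223, then 834 and 832, then 183 and 205. Aurkb alone of these 3 was 2-fold lower in Ery 6 than in Ery 1 outside globin genes, and all 3 were on all UMIs. The checkpoint kinases Bub1 and Ttk were scarce, peaking in Ery 5 at 119 and 104 and at 49.0 and 55.7.

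At the centromere, Cenpa, the histone H3 variant that marks it, was already at 288 and 277 non-globin CPM in Ery 1 and reached 977 and 954 in Ery 5. The kinetochore proteins Cenpe, a motor, and Cenpf started far lower and rose further. Cenpe went from 47.9 and 51.0 to 713 and 698, and Cenpf from 47.0 and 68.4 to 1056 and 1072. Both stayed above their Ery 1 level in Ery 6 on this scale, at 243 and 224 for Cenpe and 235 and 253 for Cenpf, while on all UMIs both were higher in Ery 6 in library 1 (102 against 47.4 CPM for Cenpe, 98.6 against 46.5 for Cenpf) but not in library 2 (48.1 against 49.8, and 54.4 against 66.8). Ndc80 and Nuf2, which bind microtubules as part of 1 complex, peaked in Ery 5 at 165 and 149 and at 202 in both libraries. Hjurp, the chaperone that loads Cenpa, peaked at 107 and 90.3.

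Among spindle genes Nusap1, which bundles microtubules, had the steepest rise of the list. It was at 39.2 (95% interval 35.4 to 43.3) and 43.8 (39.6 to 48.3) non-globin CPM in Ery 1, 1360.4 (1301 to 1422) and 1263 (1208 to 1320) in Ery 5, and 410.0 and 380 in Ery 6. Tubb4b, a beta-tubulin, was the most abundant spindle member, at 1036 and 1092 in Ery 1 and 4251 and 4488 in Ery 5. Tpx2, which activates Aurka on the spindle, went from 77.0 and 85.9 to 523 and 480, Hmmr, a microtubule-binding protein, from 67.3 and 71.6 to 633 and 587, and the motor Kif11 from 26.7 and 22.8 to 249 and 223. Tacc3, which stabilises spindle microtubules, reached 459.6 and 387, Dlgap5 256 and 227, Ckap2l 237 and 229, Ckap5 137 and 117, Ckap2 117 and 99.2, and the depolymerase Kif2c 96.7 and 102. Psrc1, another spindle protein, was the exception. It was at 9.52 and 10.4 in Ery 1, 23.4 and 21.5 in Ery 3 and 11.2 and 12.8 in Ery 5, the last from 16 and 20 UMIs. Reads of Tubb4b and Hmgb2, which have close relatives in the genome, may be split or dropped in counting, and this was not tested.

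For cytokinesis, Kif23, a motor of the central spindle, rose from 24.0 and 21.2 non-globin CPM in Ery 1 to 305 and 235 in Ery 5. Ect2, which activates RhoA at the cleavage furrow, rose from 12.7 and 10.9 to 188 and 166, and Anln (anillin), the scaffold of the contractile ring, from 11.3 and 10.7 to 166 and 120.0. Kif20b reached 152 and 140. All 4 fell in Ery 6, to between 15.0 (Anln, library 2) and 48.2 (Kif23, library 1). The group was low in level but rose by more than the summed list, except for Kif20b.

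Of the chromosome genes, Top2a, the topoisomerase that untangles sister chromatids, was at 153 and 167 non-globin CPM in Ery 1, 1311 and 1531 in Ery 5, and 148 and 147 in Ery 6. Smc4, a condensin subunit, went from 272 and 268 to 1940.5 and 1748, and Ncapd2, another, from 42.0 and 29.9 to 189 and 145. Mki67 (Ki-67), which coats mitotic chromosomes, went from 109 and 105 to 1972 and 1731. In Ery 6 Top2a was back near its Ery 1 level while Mki67 was at 595 and 537. Other chromatin proteins rose by less than the summed list. Hmgb2, a DNA-bending protein, was at 1780.2 and 1419 in Ery 1 and 4593 and 3487 in Ery 5, Cbx5 (HP1 alpha) at 121 and 115, then 266 and 234, and Anp32e, a chaperone of H2A.Z, at 274 and 257, then 659 and 584. Cdca2, which recruits a phosphatase to chromosomes, rose by more, from 18.3 and 21.8 to 184 in both libraries. At the nuclear envelope, Lbr, the lamin B receptor, rose from 99.6 and 96.7 to 1374 and 1277 and was at 417 and 449 in Ery 6. Tmpo (LAP2) rose from 248 and 214 to 1298 and 1178, and Rangap1, the Ran GTPase activator, only from 124 and 135 to 310.0 and 321.

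A member was said to depart from the list where its log2 ratio differed from that of the other members summed by more than 1 in both libraries. For Ery 6 against Ery 1, 8 departed upward, 5 downward and 37 did not. Upward were Nusap1 (by 2.86 and 2.64 on the log2 scale), Ube2c (2.57 and 2.31), Mki67 (1.94 and 1.91), Cenpe (1.80 and 1.66), Cenpf (1.78 and 1.42), Lbr (1.55 and 1.76), Ect2 (1.26 and 1.41) and Dlgap5 (1.18 and 1.24). Downward were Cdc20 (-1.91 and -1.81), Aurkb (-1.66 and -1.64), Cbx5 (-1.65 and -1.39), Hmgb2 (-1.34 and -1.41) and Cks1b (-1.22 and -1.25). Both directions held genes of more than 1 role. A departure is relative to the list, so the scale cancels apart from the 1 CPM added to each single member. That addition weighs more on scarce members where globin takes more of the UMIs, and its part in the calls was not tested. For Eryb against Ery, 6 departed upward, and Cks1b (-1.31 in both) and Cdc20 (-1.28 and -1.30) downward.

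**Figure D3:**
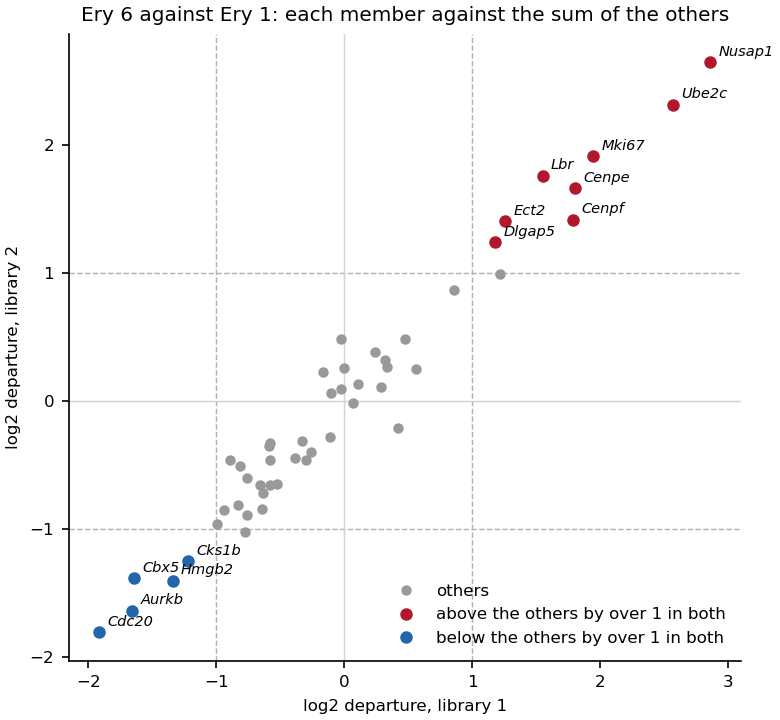
Each point is a member, placed by the log2 ratio of Ery 6 to Ery 1 minus that of the other members summed, in library 1 (x axis) and library 2 (y axis), with dashed lines at the limit of 1. Nusap1 and Ube2c lie furthest up (2.86 and 2.57 in library 1), Cdc20 and Aurkb furthest down, and the 37 grey points departed in neither direction in both libraries.

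In counts past 2-fold, Ery 6 against Ery 1 read differently on each scale. On all UMIs 20 of the 44 members tested were 2-fold lower, against 75.4% of all genes tested, and the member median was -0.91 and -1.98 against -2.40 and -3.18. Outside globin genes 10 of 49 were 2-fold higher (all genes 18.1%, a like share) and 2 were 2-fold lower (all genes 48.1%). The 10 were Ccnb2, Ube2c, G2e3, Cenpe, Cenpf, Nusap1, Dlgap5, Ect2, Mki67 and Lbr, and the 2 were Cdc20 and Aurkb. Thus most members were neither, outside globin genes, and the share of them that was lower stayed below that of all genes on both scales.

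Averages over a subcluster hid a spread between cells. After each cell was thinned to 1200 UMIs outside globin genes, the median cell had 10 and 9 member UMIs in Ery 1, 13 and 12 in Ery 2, 17 and 15 in Ery 3, 27 and 24 in Ery 4, 55 and 49 in Ery 5 and 8 and 7 in Ery 6. The variance over the mean is near 1 for counting noise alone. It was 1.51 and 1.54 in Ery 1 and 1.41 and 1.54 in Ery 2. It was higher, at 6.92 and 6.27, in Ery 4, 5.82 and 7.03 in Ery 5 and 17.4 and 16.0 in Ery 6. This ratio grows with the mean at a given relative spread. It thus does not show that Ery 5 varied more than Ery 1 relative to its level. The 10th and 90th percentiles were 5 and 15 UMIs in Ery 1 in both libraries. In Ery 5 they were 31 and 78 in library 1 and 25 and 74 in library 2. Cells with at least 30 member UMIs made up 0 of 375 and 0 of 359 cells of Ery 1, 43.6% and 36.3% of Ery 4, 91.5% and 85.0% of Ery 5 and 10.1% in both libraries of Ery 6. In Ery 6, 22.8% and 28.5% of cells had fewer than 5. Ery 6 thus held many cells with few member UMIs and a minority of 110 and 97 cells with at least 30. Thinning left out 129 of 1218 and 218 of 1176 cells of Ery 6, 3 and 4 of Ery 5, 93 and 2 of Ery 4, 77 and 0 of Ery 2 and none of Ery 1. No doublets were removed beyond the sort.

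**Figure D4:**
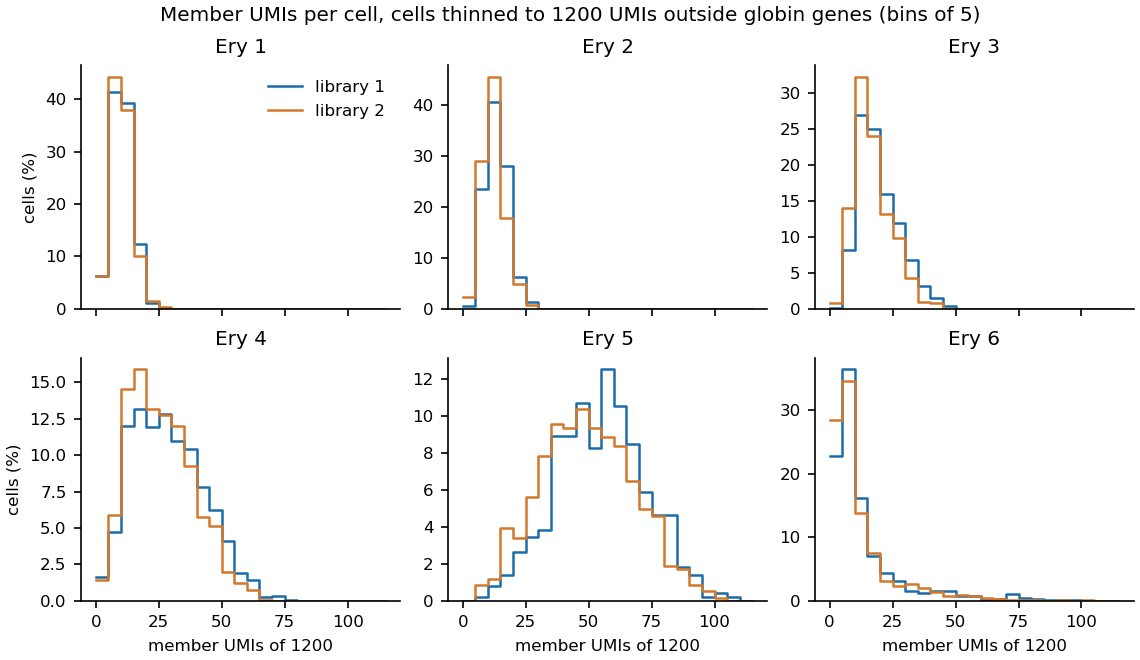
Member UMIs per cell in Ery 1 to Ery 6 after thinning to 1200 UMIs outside globin genes (x axis, bins of 5), as a percent of the subcluster's cells (y axis, scaled for each panel), with 1 line per library. In UMIs, Ery 1 and Ery 2 form narrow peaks and Ery 5, at a higher level, is broad around medians of 55 and 49. Ery 6 piles up below 10 with a tail past 30.

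Members also varied together from cell to cell. Within each subcluster the thinned cells were ranked by the UMIs of the other 49 members and split in 4, and the upper set, with the most, was compared with the lower set, with the fewest, for members with a mean of at least 0.05 UMIs per cell over both. In Ery 4, 34 of the 44 members that could be tested were 2-fold higher in the upper set in both libraries, against 5.03% of all genes. Cdc25c had 54 UMIs in the upper and 3 in the lower set of library 1, and 39 and 1 in library 2, and Cdc20 had 204 and 25, and 174 and 26. The 10 that were not 2-fold higher were Ccnb2, Hjurp, Tubb4b, Ncapd2, Hmgb2, Mki67, Cbx5, Anp32e, Tmpo and Lbr, chromatin and envelope genes for the larger part. In Ery 5, 22 of 47 were (all genes 4.03%), including Cdc20 with 101 against 14 UMIs and 116 against 16. Top2a was not, with 231 against 173 UMIs and 289 against 225. In Ery 6, 33 of 33 were (all genes 10.3%), the other 17 members having too few UMIs. Of these 17, Psrc1 was lower in the upper set in both libraries and G2e3 in library 2, while the rest were higher. In every subcluster a scarce member can pass the filter through the upper set alone. Such a member could hardly fail the 2-fold rule, so these counts do not test it. Ect2 had 36 UMIs against 0 in library 1 and 35 against 0 in library 2, and Hmgb2 873 against 131 and 567 against 72.

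The same comparison found few members in the progenitors Ery 1 and Ery 2. It gave 2 of 27 in Ery 1 (Hmmr and Tpx2; all genes 0.687%) and 2 of 28 in Ery 2 (Cdk1 and Ube2c; all genes 0.372%), but 18 of 36 in Ery 3 (all genes 1.97%). In HPSC it gave 19 of 25 (all genes 2.69%). So more members passed the rule in HPSC than in Ery 1, although their level was lower there. The sets were not alike, however. Member UMIs per cell were 3 and 2 in the lower and 14 and 13 in the upper set of HPSC. In Ery 1 they were 6 in both libraries, then 15 and 14. Sets held 53 and 52 cells in HPSC and 93 and 89 in Ery 1. The width of the split and the size of the sets differed between the erythroid subclusters too, and their part in the counts was not tested. Genes of S phase moved the other way between these sets in Ery 4, from a mean of 12.54 and 12.83 S phase UMIs in the lower to 6.05 and 5.96 in the upper set, and in Ery 5 from 12.4 and 13.2 to 4.50 and 4.75. In Ery 6 they moved with the members, from 1.44 and 1.18 to 2.92 and 3.07. Depth differed between the sets as well: in Ery 4 the median cell had 4995 UMIs in the lower and 7039 in the upper set of library 1, and in Ery 6 4822.5 and 4276.5. Globin share differed too, at 14.3% and 26.9% in the lower and 20.8% and 36.9% in the upper set of Ery 3. It was 35.4% and 56.7%, then 40.2% and 60.9%, in Ery 4. In Ery 6 it fell, from 58.4% and 79.4% to 54.8% and 75.0%. The sets may thus also differ in how far their cells had matured. The part of depth and of globin share in these counts was not tested.

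Shares of cells with at least 1 UMI, at 3600 UMIs per cell, gave the same contrast between members in late erythroblasts. Ube2c was seen in 98.7% of Ery 5 cells in library 1 and 92.5% in library 2 (98.2% and 98.0% unthinned), and in 76.9% and 56.0% of Ery 6 cells (81.0% and 76.8% unthinned). Top2a was seen in 84.3% and 71.9% of Ery 5 cells (92.0% and 90% unthinned), but in 12.7% and 7.82% of Ery 6 cells (15.4% and 14.4% unthinned). Cdc20 was seen in 56.3% and 55.4% of Ery 1 cells and 11.5% and 5.87% of Ery 6 cells (91.5% and 93.3%, then 12.6% and 11.2%, unthinned). In EryP, the type with the lowest summed share of all UMIs, Ube2c was seen in 24.1% and 17.8% of cells (28.8% unthinned in both), Top2a in 5.67% and 3.39% and Cdc20 in 3.55% and 1.69%. The Ery 6 shares of all 3 were above those of EryP at this depth, although for Top2a in library 2 the 95% intervals overlap (6.35 to 9.51 in Ery 6 and 0.931 to 8.45 in EryP), as they do for Cdc20 in that library (4.59 to 7.37 and 0.206 to 5.99). This thinning left out 237 of 1218 Ery 6, 20 of 497 Ery 5 and 29 of 170 EryP cells of library 1 and none of library 2. It counts globin UMIs, which took 1.07% and 2.37% in Ery 1, 58.1% and 78.5% in Ery 6 and 76.7% and 82.5% in EryP. Depth outside globin genes was therefore not matched between these groups.

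Erythroid cells were also ordered by their own share of adult globin UMIs and split into 10 groups of rising share in each library, an order that uses no member. Outside globin genes the members rose from 0.884% and 0.842% in the first group to 3.15% and 2.89% in the eighth, and dropped to 0.880% and 0.822% in the last. The S phase list, 39 genes of DNA replication, crested earlier, in the group numbered 4, at 0.917% and 0.871%, and ended at 0.151% and 0.136%. Thus, as shares of UMIs outside globin genes, both lists rose and fell in order, S phase first. Counted per cell, the members fell instead, from 199.9 and 207.9 UMIs in the first group to 82.95 and 67.43 in the eighth. The last group held 13.44 and 10.99. The only step up was in library 1, from 95.56 in group 6 to 96.74 in group 7. S phase UMIs per cell were not counted along this order. The median adult globin share of the group in which members crested was 51.0% in library 1 and 74.2% in library 2, so outside globin genes the crests fell at the same rank but not at the same globin share. Over all UMIs the ranks differed: members crested in group 7 of library 1, at 1.64%, and in group 4 of library 2, at 0.993%.

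**Figure D5:**
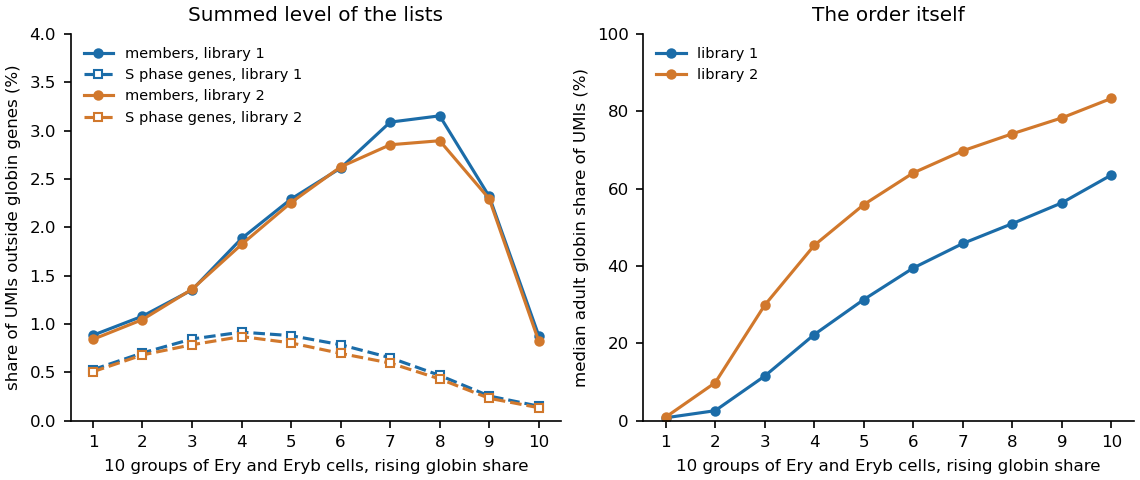
Left, summed share of UMIs outside globin genes (%) of the members (filled points) and of the S phase list (open squares) in 10 groups of Ery and Eryb cells of rising adult globin share, for each library; right, median adult globin share of each group (%). Members crest in group 8 at 3.15% and 2.89%, and S phase genes in group 4 at 0.917% and 0.871%.

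The subclusters gave the same order of lists, outside globin genes. The S phase list was at 0.517% and 0.485% in Ery 1, highest in Ery 3 at 0.907% and 0.826%, at 0.618% and 0.631% in Ery 5, and at 0.191% and 0.185% in Ery 6. From Ery 1 to Ery 5, 4 of its 39 genes were 2-fold higher (all genes 21.1%) and 14 were 2-fold lower (all genes 37.4%, a like share), and from Ery 1 to Ery 6, 33 were 2-fold lower (all genes 48.1%). A further list of 40 G2 and mitosis genes outside the members behaved as the members did: 31 of 37 tested were 2-fold higher in Ery 5 than in Ery 1 (all genes 21.1%) and 0 were 2-fold lower (all genes 37.4%), with a median log2 ratio of 2.33 and 2.25. From Ery 5 to Ery 6, 32 of 37 were 2-fold lower (all genes 16.3%) and 1, Pttg1 (securin), was 2-fold higher. The summed share of that list was 0.285% and 0.276% in Ery 1, 1.31% and 1.23% in Ery 5 and 0.434% and 0.430% in Ery 6.

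Between whole types, Eryb stood at 1.32% and 0.791% of all UMIs and Ery at 0.956% and 0.864%, so on that scale the members were higher in Eryb in library 1 and lower in library 2 (log2 ratio 0.47 and -0.13). Outside globin genes they were higher in Eryb in both, 2.08% and 1.94% against 0.977% and 0.908%, and per cell they were lower in both (log2 ratio -1.22 and -1.29). On all UMIs 6 of 48 members were 2-fold higher in Eryb, namely Ube2c, Cenpe, Cenpf, Nusap1, Mki67 and Lbr (all genes 4.86%), and outside globin genes 30 of 50 were (all genes 14.6%). Each of the latter 2 scales gave 1 direction in both libraries, but the directions were opposite.

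HPSC held less of the members than Ery, at 0.681% and 0.598% of all UMIs, a log2 ratio of -0.49 and -0.53. Of 48 members tested, 3 were 2-fold lower in HPSC (all genes 5.86%, a like share). They were Hmmr (33.6 and 33.0 CPM, against 83.1 and 83.9 in Ery), Mki67 (71.6 and 58.9, against 149.5 and 129) and Tubb4b (366 and 411, against 1166 and 1189). The member median was -0.29 and -0.36, and that of all genes 0.02 in both libraries. Tubb4b departed from the other members by -1.29 and -1.11. Hmgb2 and Cks1b made up 24.1% and 20.4%, and 8.64% and 8.16%, of the member UMIs of HPSC. In Ery they made up 21.0% and 17.6%, and 4.87% and 4.92%. Hmgb2 thus led the sum in both HPSC and Ery, while Ube2c led it in the late erythroblasts Ery 5 and Ery 6.

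EryP, the primitive erythroblasts, held 0.158% and 0.153% of UMIs in members, 8.36-fold and 5.16-fold less than Eryb. On all UMIs 44 of 45 members tested were 2-fold lower than in Eryb (all genes 69.7%), and outside globin genes 30 of 50 were (all genes 15.6%). Globin genes took 76.7% and 82.5% of their UMIs, and outside globin genes their share was 0.677% and 0.878%, a log2 ratio to Eryb of -1.62 and -1.14. An EryP cell had 8.89 and 12.54 member UMIs on average, and 10 of 141 and 23 of 118 cells thinned to 3600 UMIs had none. Bub1, with 1 and 0 UMIs in the type, departed below the other members. G2e3 and Psrc1, with 5 and 5 and with 2 and 4 UMIs, departed above them. At so few UMIs the 1 CPM added weighs heavily on these departures. EryP levels lay below those of free RNA (0.967% and 0.831% of UMIs), so how much of them is background was not tested.

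The other types lay in a narrow band. The members took 0.812% and 0.782% of all UMIs in G, 0.802% and 0.745% in Mo/KC, 0.636% and 0.819% in Mk, 0.507% and 0.591% in Hepa and 0.675% and 0.805% in EC. Mk, Hepa and EC were higher in library 2 and G and Mo/KC in library 1, so their order is not the same in both libraries. Hmgb2 reached its highest level on all UMIs outside the erythroid path, at 2712 and 2179 CPM in G and 2350.1 and 1871 in Mo/KC, against 2263 and 1662 in Ery 2, its erythroid peak on that scale. All of these sums lay below the free RNA level of their library, as did those of HPSC, Ery 1 and Ery 6, and Mo/KC, Mk, Hepa and EC had 20 to 79 cells per library. Outside globin genes the free RNA level was 1.22% and 1.37%. Ery 1 and Ery 2 lay below it in both libraries, and Ery 6 slightly above it in library 1 and below it in library 2. How much of the Ery 6 level is background was not tested.

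The subcluster in which a member peaked depended on the scale. Outside globin genes 49 of 50 members peaked in Ery 5 among the 6 subclusters in both libraries. On all UMIs 45 did so in library 1, 25 in library 2 and 25 in both. In library 2 the others peaked in Ery 1 (4 members), Ery 2 (7), Ery 3 (11) and Ery 4 (3). The share of all genes that peak in Ery 5 was not counted on either scale, so these counts describe the members without a background. Across the 13 groups of cells, taken as log2(CPM + 1) of all UMIs, the genes outside the list most like the summed members were Kif22 (Pearson r 0.963 in library 1 and 0.976 in library 2), Incenp (0.971 and 0.963), Ska1 (0.962 and 0.973) and Sgol1 (0.961 and 0.964). Members themselves ran from 0.974 and 0.987 (Smc4) down to 0.415 and 0.512 (Psrc1), and these groups share libraries, globin load and depth.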

How the data were processed

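The deposited gene counts (UMIs per gene and barcode) were made by the authors with Cell Ranger 2.1.1 on mm10, with GRCm38 annotation, and the cell table with Seurat 3.2.0, keeping cells with at least 200 genes; the header of the library 1 matrix names software version 3.0.0. The deposited cell-cycle values are scores, per the file headers. No UMI correction for free RNA is described.

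UMIs of the 50 members were summed over the cells of each deposited cell type or subcluster, each library on its own, and divided by all UMIs, by UMIs outside globin genes, or by cells. Single cells were thinned to 3600 UMIs or to 1200 UMIs outside globin genes (seed 1). UMIs count molecules, so levels were not divided by gene length. A 2-fold call needed a CPM ratio of at least 2 (1 CPM added) the same way in both libraries and a mean of at least 10 CPM. Intervals are exact, at 95%, for counting error only. The study's replicates are technical, so no significance test was run. A departing member was one whose log2 ratio differed from that of the other members by over 1 in both libraries; of other lists, at most the 3 highest and lowest genes are named, besides those most like the members' sum. The members and lists were chosen with earlier results of these data known. The 2-fold rule was run on simulated data for Ery 6 against Ery 1, as Poisson counts from the same gene means in both libraries. It recovered all 200 genes changed by 4-fold or 8-fold among 6186 and called 0 of the others. The changed genes were chosen above the 10 CPM limit. No difference between libraries and no spread between cells beyond counting was put in. At such depth this outcome was all but fixed, so it checks only that the rule runs as written. Smaller changes and scarce genes were not simulated. Promoter windows were those of RefSeq on GRCm38.p6. Scripts ran in Python 3.11.15 with scipy 1.17.1, numpy 2.4.6 and pandas 2.3.3.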

Additional observations from a re-analysis of the deposited data

Results flagged for a closer look

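Barcodes outside the cell table also held member UMIs. Of barcodes not kept as cells, with at least 1000 UMIs and 200 genes, there were 168 in library 1 and 3311 in library 2. The members took 0.990% (95% interval 0.959 to 1.02) and 0.698% (0.692 to 0.705) of their UMIs, and 1.63% and 1.13% of UMIs outside globin genes. These are data that no comparison above uses. Free RNA (barcodes with 1 to 50 UMIs) gave 0.967% and 0.831% of all UMIs, and 1.22% and 1.37% outside globin genes. Of all UMIs, the share was thus near that of free RNA in library 1 and below it in library 2. Whether these barcodes hold cells was not tested.

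The deposited G2M score, a per-cell value made by the authors, was above 0 in 4.84% of cells of library 1 and in 21.0% of library 2. In library 1 it was exactly 0 in 3400 of 5480 cells (62.0%), and in library 2 in 0 of 5057. Of the 2560 cells of library 1 with the deposited phase G2M, 2314 had a score of exactly 0. The phase G2M was given to 67.0% of Ery 5 cells in library 1 and 14.1% in library 2, and to 73.9% and 17.0% of Ery 6 cells. The libraries therefore differ in these calls by more than in the member sums.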

How the results depend on the processing

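No paired analysis was possible because both libraries are technical replicates of 1 condition and no result comes from a test. Values are the mean log2 ratio of both libraries unless named. Ery 6 against Ery 1 (-1.19) turned to 0.52 outside globin genes and to 0.11 (0.51 in library 1, -0.29 in library 2) under a stricter cell filter (1000 genes or more, mitochondrial UMIs under 10%), which kept 177 of 1218 and 134 of 1176 Ery 6 cells; it was -3.25 per cell and -1.69 to -0.70 with 1 library left out. Eryb against Ery (0.17) was 1.09 outside globin genes, -1.26 per cell, -0.13 without library 1 and 0.47 without library 2. EryP against Eryb (-2.72) moved to -1.38 outside globin genes, -1.08 with the stricter cell filter (13 of 170 and 11 of 118 EryP cells) and -3.83 after subtracting 10% free RNA, and was -3.06 to -2.37 with 1 library left out. HPSC against Ery (-0.51) moved to -0.95 per cell, -0.57 as a mean of cell shares, -0.56 when thinned, -0.58 after free RNA and -0.41 without Hmgb2, Tubb4b and Ube2c, and was -0.53 to -0.49 with 1 library left out. The count of members 2-fold lower in Ery 6 than in Ery 1 (20) became 2 outside globin genes, 42 per cell and 2 with the stricter filter. It was 20 to 36 with 1 library left out. Of all genes tested, 75.4% were 2-fold lower on all UMIs and 48.1% outside globin genes. For the other settings the share of all genes was not counted, so those counts describe the members without a background. The 90th percentile of the member share was 1.24% in Ery (1.17 to 1.31 by library) and 1.92% in Eryb (1.42 to 2.42); on thinned UMIs outside globin genes, an alternative added after the data were seen, it was 1.38% and 4.38%. Of the alternatives, 42 moved a value by less than the spread of the libraries or kept the count within 1.5 times, 16 moved it further and 4 reversed its sign. For log2 ratios and percentiles, leaving out 1 library always moves the mean by less than that spread. Those alternatives could therefore only stay within it or turn the sign. The causes were not tested. The depth of library 1 limits the thinned shares, since its shallow cells were left out.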

Other observations

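In HPSC the deposited phases went with the members: outside globin genes they took 0.488% and 0.481% of UMIs in cells given G1, 0.537% and 0.506% in S and 0.946% and 0.816% in G2M. In Eryb they did not separate G1 from G2M, at 2.41% in both phases in library 1 and 2.29% and 2.27% in library 2, with 1.70% and 1.60% in S. In Ery 5 the share was 4.38% and 4.22% in G1 and 4.68% and 4.24% in G2M. In library 1, however, 2095 of the 2105 Eryb cells given G2M had a G2M score of exactly 0. So had 332 of 333 such cells of Ery 5, but 0 of 75 of HPSC. The library 1 phases of these types are therefore not alike in kind, and the part of this in the values was not tested. In library 2 the score was exactly 0 in 0 cells. The phases were called by the authors from genes of the same cells. Those genes may include the members, in which case a higher share in G2M is built in. These values are therefore a description.

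Of the other G2 and mitosis genes, Cdc25b, a phosphatase that activates Cdk1, had the highest log2 ratio of Ery 6 to Ery 1 on all UMIs, at 4.47 and 3.35, and Pkmyt1, a kinase that inhibits Cdk1, the lowest, at -2.98 and -3.59. Among S phase genes Cdca7 had the lowest, at -5.42 and -5.45.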
